A study of Mus musculus with 8 samples.

Results

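Semaphorins are secreted or membrane-bound guidance proteins, and plexins and neuropilins are the receptors that bind them on axons and migrating cells. Their expression was read in midbrain dopaminergic (mDA) neurons of the substantia nigra pars compacta (SNc) and the ventral tegmental area (VTA). Members were all probesets of the array whose single gene symbol was Sema3 to Sema7, Plxna to Plxnd, Nrp1 or Nrp2. This gave 33 probesets of 31 genes among 35512 probesets, of which 21789 carried 1 symbol. They were 22 probesets of 20 semaphorin genes, 9 plexin genes and 2 neuropilin genes.

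The study profiled EGFP+ cells that excluded propidium iodide, sorted from microdissected SNc and VTA of C57Bl/6 pups (C57Bl/6J in the methods) aged P1 to P4. All pups carried TH-EGFP+/-, a transgene that marks cells in which the tyrosine hydroxylase promoter is active. The groups were SNc WT and VTA WT (Pitx3+/+) and SNc KO and VTA KO (Pitx3-/-), with 2 Affymetrix Mouse Gene ST arrays each. Each RNA sample pooled several frozen batches of such cells. The study describes 4 cell preparations, each purified and hybridized in duplicate, and does not state that duplicates stand for different animals, so p-values reflect the spread of these pools alone and that spread may be technical. The study's rationale was that Pitx3-positive neurons are already gone from the SNc of newborn Pitx3-/- pups, while those of the VTA are still present. By this rationale, SNc KO against SNc WT sets a surviving population against a mixed one. In such bulk samples, fewer cells of a type and less RNA per cell cannot be told apart.

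Class 3 semaphorins are secreted and most of them signal through a complex of a neuropilin, which binds the ligand, and a plexin A, which carries the signal into the cell. Semaphorins of classes 4 to 6 span the membrane and class 7 is anchored to it by a lipid, and these bind plexins directly. In the ventral midbrain, members of the family are known to act on the migration of mDA neurons and on the course of their axons to the forebrain.

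Because Nrp2, Plxnc1 and Sema3c passed the thresholds of the study in more than 1 comparison, the sequences just upstream of their annotated starts are shown, 5' to 3' on the gene's strand, from RefSeq on GRCm38.p6. They lie at chr1:62703067-62703316 (Nrp2, plus strand), chr10:94945016-94945095 (Plxnc1, minus strand, cut to the 80 bases outside the annotated gene) and chr5:17574566-17574815 (Sema3c, plus strand). Capitals mark GGGCGG or its reverse complement CCGCCC, the GC box.
Nrp2: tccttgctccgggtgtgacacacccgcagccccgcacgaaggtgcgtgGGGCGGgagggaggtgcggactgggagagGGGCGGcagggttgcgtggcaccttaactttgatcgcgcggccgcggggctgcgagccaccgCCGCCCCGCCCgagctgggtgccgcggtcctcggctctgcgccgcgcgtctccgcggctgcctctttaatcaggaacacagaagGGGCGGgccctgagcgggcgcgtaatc
Plxnc1: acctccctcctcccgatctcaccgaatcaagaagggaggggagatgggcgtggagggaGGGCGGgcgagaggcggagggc
Sema3c: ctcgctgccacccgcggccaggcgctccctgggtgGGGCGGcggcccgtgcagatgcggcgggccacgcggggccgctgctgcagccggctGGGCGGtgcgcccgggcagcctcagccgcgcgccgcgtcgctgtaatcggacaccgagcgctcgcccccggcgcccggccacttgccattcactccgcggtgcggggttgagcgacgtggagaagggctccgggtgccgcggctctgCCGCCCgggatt

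The GC box occurred 5 times before Nrp2, 1 time before Plxnc1 and 3 times before Sema3c, counted on both strands. It was present in 32.7% of 32851 RefSeq promoters over the 250 bases before the start, a longer window than the 80 bases of Plxnc1. Neither TAATCC, a bicoid-type homeodomain motif of the kind Pitx factors bind, nor AAGGTCA, a motif of NR4A receptors such as Nurr1, was present in the 3 windows on either strand. These letters were found in 6.25% and 4.08% of the promoters over 250 bases, shares that do not apply to the shorter Plxnc1 window. Bases G and C made up 72.4%, 68.75% and 78.4% of the Nrp2, Plxnc1 and Sema3c sequences, against a median of 52.4% over the promoters. The motifs were chosen with the expression values known, and a match is no evidence of binding.

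Values are log2 signals, and a difference is the mean of the first group minus that of the second. Array medians lay between 6.11 and 6.24, and the standard deviation between duplicate arrays was 0.241 to 0.252, except in VTA KO, where it was 0.376. A probeset was tested where its mean signal reached 60 (log2 of 5.91) in at least 1 group, which 29 member probesets of 27 genes did (20 of ligands, 9 of receptors). Plxnb3, Plxnd1, Sema3d and Sema4f stayed under this minimum in every group. Plxnb3 lay between 5.32 and 5.80 and Plxnd1 between 5.22 and 5.73 over the 8 arrays. Sema3d lay between 5.05 and 5.69, and Sema4f between 5.56 and 6.05, with 2 arrays over the minimum. Plxnd1 is a receptor best known in blood vessels, and of 8 endothelial markers Cdh5, Emcn, Esam, Kdr, Pecam1 and Tek stayed under the minimum in every group too, while Cldn5 and Flt1 passed it in at least 1 group, at 5.69 to 6.18 and 5.87 to 6.46 over the arrays. The 2 probesets of Sema6b held identical values on all arrays and are 1 measurement counted 2 times below, while those of Sema4d differed by up to 0.41.

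Dopaminergic identity was checked first. All 10 dopaminergic markers passed the signal minimum, and Th, which catalyses the limiting step towards dopamine, lay between 10.01 and 10.34 on the 8 arrays. Their summed linear signal was 9524 and 8788 in SNc WT, 6596 and 7245 in SNc KO, 7787 and 7658 in VTA WT, and 6469 and 6740 in VTA KO. In SNc KO against SNc WT, 3 of the 10 were lower and 0 higher at the thresholds of the study. Of the 10, 1 was lower at an adjusted p under 0.05 from limma. Slc6a3, Drd2 and Ddc were among those with both SNc KO arrays below both SNc WT arrays, while Ret had them above. In VTA KO against VTA WT, 1 was lower and 0 higher at these thresholds. Pitx3, the disrupted gene, was at 7.72 and 7.63 in SNc WT, 7.87 and 7.94 in SNc KO, 8.10 and 7.84 in VTA WT, and 8.08 and 7.92 in VTA KO. Its signal was thus not lower on the arrays labelled KO. In SNc, both KO arrays were above both WT arrays, though by the study's rationale the Pitx3-positive neurons are gone from SNc KO. The reason was not tested. The sources used here do not say which part of the gene is deleted or covered by the probeset, so it does not check the genotype in any of the KO comparisons.

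Among the 29 tested members, Nrp2 was the only one with an adjusted p under 0.05 in any comparison. It was lower in SNc WT than in the VTA of the same genotype. This is limma's test with Benjamini-Hochberg adjustment over all 22112 tested probesets, of which 0.439% were called in that comparison. At the thresholds of the study (unadjusted p of at most 0.05, fold of at least 1.5, signal of at least 60), Nrp2 was lower and Sema3a and Sema4b were higher in SNc WT, against 6.62% of all tested probesets. The duplicate arrays of the groups did not overlap for 11 members that were higher in SNc WT and 12 that were lower, where 29.6% and 28.7% of all probesets did the same. The members' median log2 difference was 0.018, against 0.0080 over all probesets. Above 0 lay 15 members, with Sema6b counted 2 times, and 14 lay below it, where 51.0% of all probesets lay above 0.

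In SNc KO against SNc WT, Nrp2, Plxnc1 and Sema5b were higher at the thresholds of the study, which 3.6% of all probesets passed, and none reached an adjusted p under 0.05 (background 0.149%). At an unadjusted p under 0.05 from limma, 8 members were higher and 0 were lower, against 4.82% and 3.80% of all probesets. The 8 were the probesets of Nrp2, Plxna3, Plxnb2, Plxnc1, Sema5b, Sema6a and the doubled Sema6b. The arrays did not overlap for 19 members that were higher in SNc KO and 5 that were lower, against 24.0% and 20.0% of all probesets. The members' median difference was 0.17, against 0.014 over all probesets. Above 0 lay 22 of 29, a count in which Sema6b enters 2 times, against 52.8% of all probesets.

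In VTA KO against VTA WT, Plxnc1 alone passed the thresholds of the study, as did 4.35% of all probesets. No member had an adjusted p under 0.05 (background 0.00904%), and at an unadjusted p under 0.05 from limma 2 were higher (Plxnc1 and Sema6d) and 1 was lower (Sema3e), where 4.73% and 5.51% of all probesets were. The arrays did not overlap for 8 members that were higher and 5 that were lower, against 17.5% and 20.7% of all probesets. The median difference of the members was -3.9e-05, against -0.023 over all probesets.

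The study did not set SNc KO against VTA KO. There, Sema3c was higher in SNc KO at the same thresholds, which 6.96% of all probesets passed, and no member was called at an adjusted p under 0.05 (background 0.149%), with 6 higher and 1 lower at an unadjusted p under 0.05 from limma, against 9.73% and 7.81% of all probesets. The arrays did not overlap for 14 members that were higher and 4 that were lower, against 26.8% and 21.8% of all probesets. The median difference was 0.21, against 0.035 over all probesets and 0.098 over those whose mean signal reached 100 in any group. Here too 22 of 29 members lay above 0, with Sema6b counted 2 times, against 54.8% of all probesets. The knockout effect in SNc minus that in VTA was past the thresholds of the study for Nrp2 and Sema3c, against 6.74% of all probesets. At an adjusted p under 0.05, 0 members and 0.0% of all probesets were called for it, while at an unadjusted p under 0.05 from limma it was positive for 5 members and negative for 1, against 5.53% and 4.36% of all probesets. These comparisons share arrays, so their counts are not independent of each other.

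**Figure D1:**
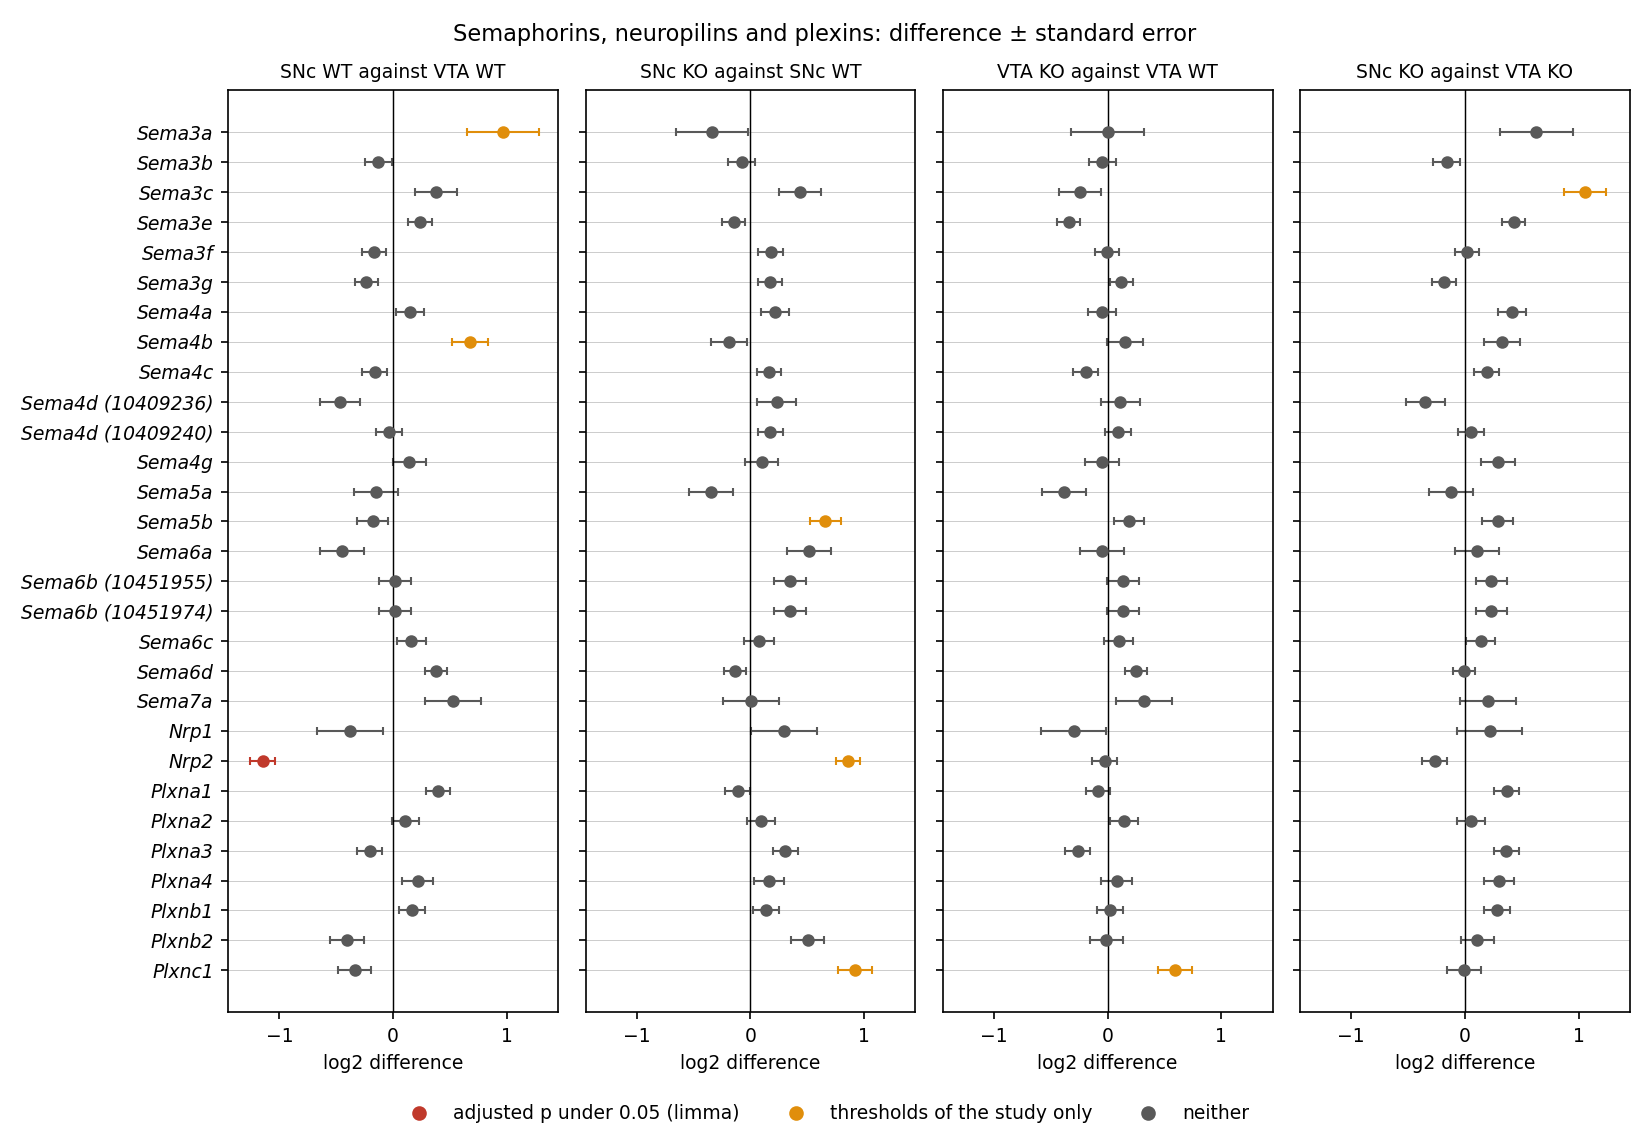
Log2 difference of each of the 29 tested member probesets in 4 comparisons (horizontal axis), with bars of 1 standard error from limma and numbers in parentheses for genes with 2 probesets. The single adjusted call is Nrp2 at -1.15 in SNc WT against VTA WT, and Nrp2 (0.86) and Plxnc1 (0.92) lie farthest to the right in SNc KO against SNc WT.

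The neuropilins are the ligand-binding co-receptors of class 3 semaphorins. Nrp2, which binds Sema3f and Sema3c, was at 6.92 and 6.79 on the SNc WT arrays and at 7.68 and 7.74 on the SNc KO arrays. In VTA it was at 8.06 and 7.94 in WT and at 7.93 and 8.01 in KO. Both SNc WT arrays were thus below all others, both SNc KO arrays were between them and the VTA arrays, and the VTA genotypes overlapped. Nrp2 was 2.22-fold lower in the SNc than in the VTA of WT pups (log2 difference of -1.15, standard error 0.11, adjusted p = 0.0165 from limma). It was 1.81-fold higher in SNc KO than in SNc WT (0.86, standard error 0.11, adjusted p = 0.0727 from limma).

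In VTA, the knockout difference of Nrp2 was -0.03, with a 95% interval of -0.29 to 0.23. The knockout effect was larger in SNc than in VTA by 0.88 (standard error 0.15, unadjusted p = 9.6e-04, adjusted p = 0.261 from limma). The difference between the regions was -0.26 among the KO arrays (unadjusted p = 0.0484, adjusted p = 0.281 from limma). The adjusted call in SNc WT against VTA WT was lost on leaving out either VTA WT, SNc WT or SNc KO array, with adjusted p between 0.0570 and 0.148, while the difference stayed between -1.21 and -1.08.

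The other neuropilin, Nrp1, is the co-receptor of Sema3a. It was at 6.64 and 6.79 in SNc WT, 7.41 and 6.62 in SNc KO, 6.93 and 7.26 in VTA WT, and 6.57 and 7.02 in VTA KO. The first SNc KO array was the highest of the 8 and the second was among the lowest, so the groups overlapped except in the WT comparison. Its difference in SNc WT against VTA WT was -0.38, with a 95% interval of -1.07 to 0.32, and it passed no test.

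**Figure D2:**
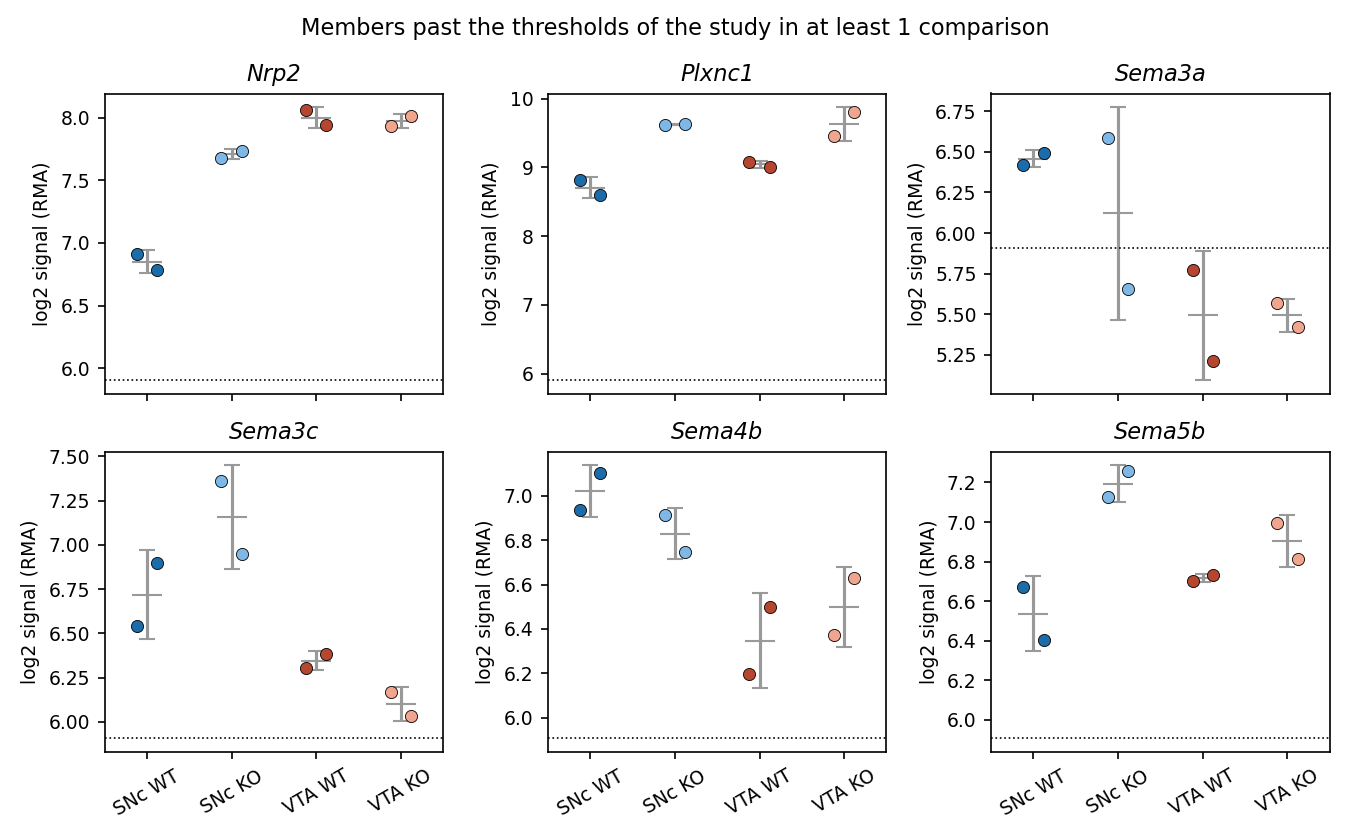
Log2 signal of the 6 members that passed the thresholds of the study in at least 1 comparison, with 1 point per array, the mean and SD of each group of 2 arrays, and a dotted line at the signal minimum. Nrp2 is lowest on the SNc WT arrays (6.79 and 6.92), Plxnc1 is highest on the 4 KO arrays (9.46 to 9.80), and Sema3a is over the minimum on 3 arrays only; each panel has its own vertical axis, which does not start at 0.

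Marker lists of other cells were read beside Nrp2. The summed linear signal of 15 pericyte and smooth muscle markers, all but Dcn and Lum over the minimum in at least 1 group, was 1158 and 1061 in SNc WT, 2804 and 2536 in SNc KO, and 3350 and 2577 in VTA WT. In VTA KO it was 3286 and 880. Nrp2 was at 7.93 and 8.01 on these 2 VTA KO arrays, and the part of these cells in its values was not tested. The 3 glutamatergic neuron markers, of which Slc17a7 stayed under the minimum, summed to 631 and 526 in SNc WT, 1164 and 1119 in SNc KO, 939 and 1074 in VTA WT, and 1238 and 1087 in VTA KO. They were lowest on the SNc WT arrays, as Nrp2 was. The 8 measured oligodendrocyte lineage markers were also lowest there. Their sums were 498 and 488 in SNc WT, 575 and 583 in SNc KO, 691 and 679 in VTA WT, and 618 and 516 in VTA KO. So were the ependymal and ciliated cell markers given below. The part of these cells in the Nrp2 values was not tested.

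Plexins of group A carry the signal of class 3 and class 6 semaphorins. Plxna1 was at 8.87 and 8.75 in SNc WT and 8.36 and 8.48 in VTA WT, and at 8.67 and 8.73 in SNc KO and 8.37 and 8.30 in VTA KO. All 4 SNc arrays were above all 4 VTA arrays. The differences were 0.39 between the WT groups (unadjusted p = 0.00965, adjusted p = 0.152 from limma) and 0.37 between the KO groups (unadjusted p = 0.0133, adjusted p = 0.2 from limma), both below 1.5-fold.

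Plxna3, a partner of Nrp2 in the response to Sema3f, was at 7.12 and 7.20 in SNc WT, 7.50 and 7.42 in SNc KO, 7.29 and 7.43 in VTA WT, and 7.16 and 7.04 in VTA KO. It was higher on the KO arrays of SNc and lower on those of VTA. The difference between these knockout effects was 0.57 (standard error 0.16, unadjusted p = 0.00949, adjusted p = 0.39 from limma). Plxna4, which serves Sema3a with Nrp1, had the 2 SNc KO arrays on top (9.65 and 9.62) and a knockout difference of 0.16 in SNc, with a 95% interval of -0.16 to 0.48. Plxna2, a receptor of Sema6a, lay between 7.89 and 8.14 on all arrays.

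Group B plexins are receptors of class 4 semaphorins such as Sema4d. Plxnb2 was at 6.40 and 6.25 in SNc WT, 6.97 and 6.69 in SNc KO, 6.81 and 6.66 in VTA WT, and 6.82 and 6.62 in VTA KO. Like Nrp2, it had both SNc WT arrays below the other 6. The differences were -0.41 in SNc WT against VTA WT (unadjusted p = 0.0297, adjusted p = 0.219 from limma) and 0.50 in SNc KO against SNc WT (unadjusted p = 0.0123, adjusted p = 0.408 from limma). Plxnb1 ranged from 6.72 to 7.10 and was 0.28 higher in SNc KO than in VTA KO (unadjusted p = 0.0421, adjusted p = 0.268 from limma).

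Plxnc1, the receptor of Sema7a, was at 8.81 and 8.60 in SNc WT and 9.62 and 9.63 in SNc KO. In VTA it was at 9.08 and 9.0 in WT and 9.46 and 9.80 in KO. All 4 KO arrays were above all 4 WT arrays. Plxnc1 was 1.89-fold higher in SNc KO than in SNc WT (0.92, standard error 0.15, unadjusted p = 6.4e-04, adjusted p = 0.13 from limma). It was 1.5-fold higher in VTA KO than in VTA WT (0.59, standard error 0.15, unadjusted p = 0.00643, adjusted p = 0.274 from limma).

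The knockout effects on Plxnc1 differed by 0.33 between the regions, with a 95% interval of -0.18 to 0.83. Its KO groups differed by -0.01 (95% interval of -0.37 to 0.35), and its WT groups by -0.34 (-0.70 to 0.02). The VTA difference sat at the fold threshold, and it was 0.55 without the second VTA WT array and 0.42 without the second VTA KO array, both below 1.5-fold. The summed signal of the 3 measured GABAergic neuron markers was also higher on all KO arrays. It was 759 and 818 in SNc WT and 1275 and 1160 in SNc KO, and 750 and 762 in VTA WT and 1232 and 1055 in VTA KO. Of the 3, Gad2 and Slc32a1 had all KO arrays above all WT arrays, and Gad1 did not. The glutamatergic neuron sums given above were higher on all KO arrays too, at 1087 to 1238 against 526 to 1074 in WT. So was Ret, a dopaminergic marker, at 9.34 to 9.51 against 8.84 to 9.19. The part of any of these cells in the Plxnc1 values was not tested.

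Class 3 semaphorins are the secreted ligands. Sema3a, a repellent of many axons, was at 6.42 and 6.50 in SNc WT, 6.58 and 5.66 in SNc KO, 5.77 and 5.21 in VTA WT, and 5.57 and 5.42 in VTA KO. It passed the signal minimum on both SNc WT arrays and 1 SNc KO array, and on no VTA array. It was 1.95-fold higher in SNc WT against VTA WT (0.97, standard error 0.32, unadjusted p = 0.0218, adjusted p = 0.199 from limma), where both VTA groups were under the signal minimum. The SNc KO arrays differed by 0.93 from each other, so the knockout difference of -0.34 had a 95% interval of -1.11 to 0.43. The WT difference was no longer past the thresholds of the study without the second VTA WT array (0.68) or without either SNc WT array (1.0 and 0.93).

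Sema3c, a ligand of both neuropilins and of Plxnd1, was at 6.54 and 6.89 in SNc WT, 7.36 and 6.95 in SNc KO, 6.31 and 6.38 in VTA WT, and 6.17 and 6.03 in VTA KO. Every SNc array was above every VTA array, and the order was SNc KO, SNc WT, VTA WT, VTA KO. It was 2.08-fold higher in SNc KO than in VTA KO (1.06, standard error 0.18, unadjusted p = 9.6e-04, adjusted p = 0.121 from limma). The WT groups differed by 0.37 (95% interval of -0.07 to 0.82). The knockout differences were 0.44 in SNc and -0.24 in VTA, neither past an unadjusted p of 0.05, and they differed from each other by 0.68 (unadjusted p = 0.037, adjusted p = 0.481 from limma). This last difference was no longer past the thresholds of the study in 8 of 15 alternative settings.

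Sema3e, which acts on Plxnd1 without a neuropilin, was at 6.89 and 6.90 in SNc WT, 6.72 and 6.77 in SNc KO, 6.67 and 6.65 in VTA WT, and 6.38 and 6.25 in VTA KO. The 4 groups did not overlap, with the SNc above the VTA in each genotype and WT above KO in each region. It was 0.43 higher in SNc KO than in VTA KO (unadjusted p = 0.00468, adjusted p = 0.168 from limma) and 0.34 lower in VTA KO than in VTA WT (unadjusted p = 0.0134, adjusted p = 0.333 from limma). Sema3f, the main ligand of Nrp2, lay between 6.81 and 7.08 on all arrays, and its WT difference was -0.17 (95% interval of -0.42 to 0.08). Sema3b and Sema3g were near the minimum, at 5.78 to 6.08 and 5.54 to 5.99, and passed no test.

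Class 4 semaphorins span the membrane. Sema4b was at 6.94 and 7.10 in SNc WT, 6.91 and 6.75 in SNc KO, 6.2 and 6.50 in VTA WT, and 6.37 and 6.63 in VTA KO. All SNc arrays were above all VTA arrays. It was 1.59-fold higher in SNc WT against VTA WT (0.67, standard error 0.16, unadjusted p = 0.00468, adjusted p = 0.122 from limma) and 0.52 higher, below 1.5-fold, without the first VTA WT array. Among the KO groups the difference was 0.33 (95% interval of -0.05 to 0.71).

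Sema4d, the ligand of Plxnb1, gave unlike values on its 2 probesets. Probeset 10409236 was at 7.03 and 6.80 in SNc WT and 7.61 and 7.16 in VTA WT (-0.47, unadjusted p = 0.0325, adjusted p = 0.226 from limma). Probeset 10409240 was at 7.17 and 7.06 in SNc WT and 7.20 and 7.10 in VTA WT, which overlap (-0.03, 95% interval of -0.31 to 0.24). No direction is therefore given for the gene. Sema4a was 0.42 higher in SNc KO than in VTA KO (unadjusted p = 0.0139, adjusted p = 0.202 from limma), and Sema4c and Sema4g passed no test.

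Of the class 5 semaphorins, which carry thrombospondin repeats, Sema5b was at 6.67 and 6.40 in SNc WT, 7.13 and 7.26 in SNc KO, 6.70 and 6.73 in VTA WT, and 7.0 and 6.81 in VTA KO. The KO arrays were above the WT arrays of the same region. It was 1.58-fold higher in SNc KO than in SNc WT (0.66, standard error 0.14, unadjusted p = 0.0024, adjusted p = 0.225 from limma), and 0.52 higher, below 1.5-fold, without the second SNc WT array. In VTA its knockout difference was 0.19 (95% interval of -0.14 to 0.51). Sema5a had the opposite sign, with -0.35 in SNc and -0.38 in VTA, and in neither region did the WT and KO arrays overlap. Neither difference passed a test (adjusted p = 0.712 and 0.57 from limma).

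Class 6 semaphorins bind plexin A directly. Sema6a was at 7.91 and 8.07 in SNc WT, 8.59 and 8.41 in SNc KO, 8.49 and 8.40 in VTA WT, and 8.67 and 8.12 in VTA KO. The SNc WT arrays were the lowest, as for Nrp2 and Plxnb2, and the knockout difference in SNc was 0.51 (unadjusted p = 0.0353, adjusted p = 0.533 from limma). Sema6d was at 9.67 and 9.68 in SNc WT, 9.52 and 9.55 in SNc KO, 9.26 and 9.33 in VTA WT, and 9.57 and 9.52 in VTA KO. The SNc WT arrays were the highest and the VTA WT arrays the lowest, and both KO groups lay between them. Its differences were 0.38 between the WT groups (unadjusted p = 0.0067, adjusted p = 0.136 from limma) and 0.25 in VTA KO against VTA WT (unadjusted p = 0.0377, adjusted p = 0.45 from limma).

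Sema6b was at 7.21 and 7.14 in SNc WT and 7.35 and 7.71 in SNc KO, with a difference of 0.35 (unadjusted p = 0.0425, adjusted p = 0.554 from limma). Sema6c lay between 6.30 and 6.63 and passed no test. Sema7a, the anchored ligand of Plxnc1, was at 7.49 and 7.52 in SNc WT, 7.53 and 7.48 in SNc KO, 6.65 and 7.31 in VTA WT, and 7.54 and 7.06 in VTA KO. The SNc arrays were alike and the VTA arrays were scattered, so that the WT difference of 0.53 had a 95% interval of -0.07 to 1.12.

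**Figure D3:**
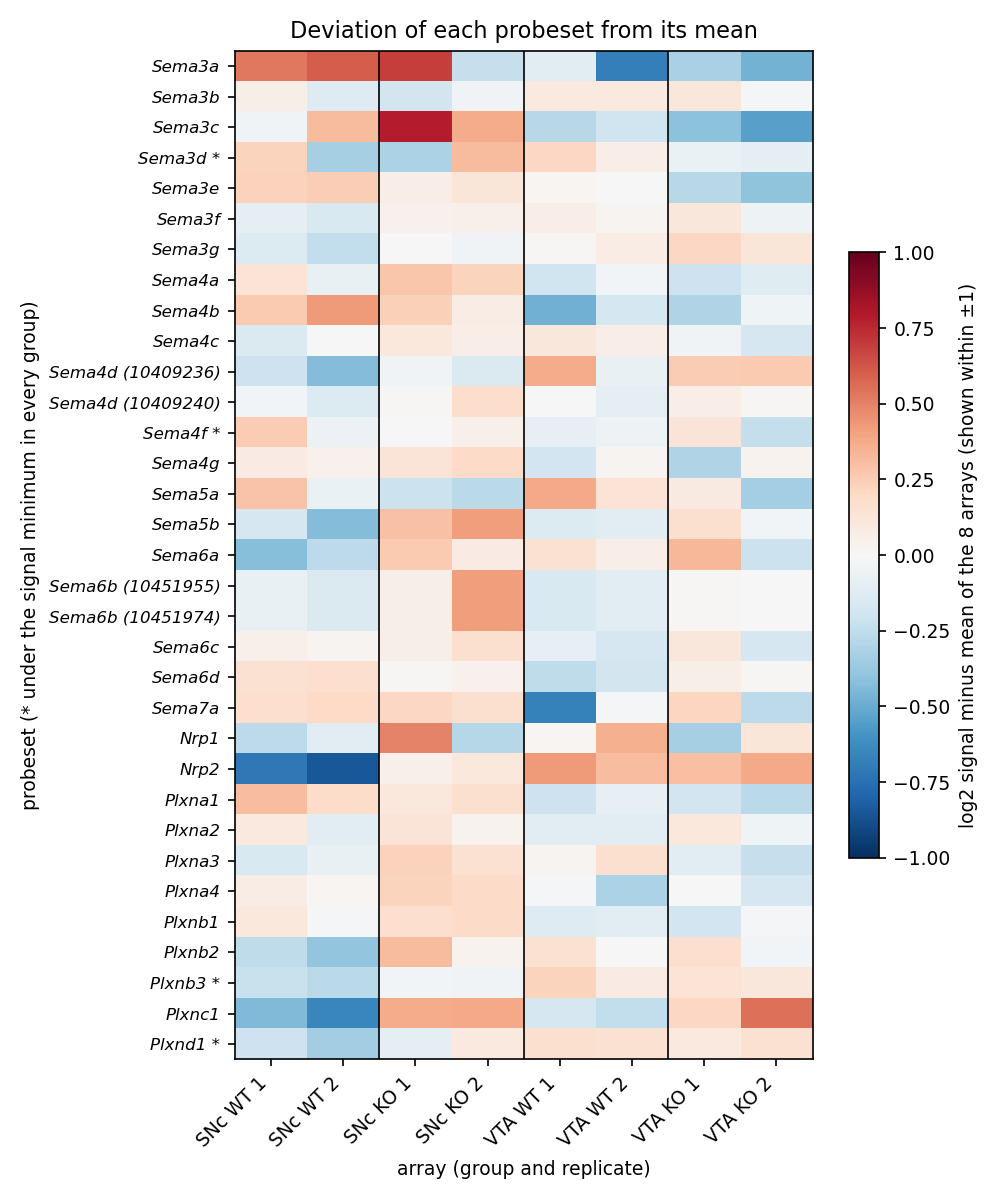
Log2 signal of all 33 member probesets on each array (columns) minus the probeset's mean over the 8 arrays, in colour from -1 to 1, with an asterisk for the 4 that stayed under the signal minimum in every group. Nrp2 is darkest blue in SNc WT, Plxnc1 is red on all 4 KO arrays, and Sema3a and Nrp1 differ within the SNc KO duplicates.

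Across the tested members, the group means spanned 0.18 to 1.15, with a median of 0.38, and 6 members spanned at least 1.5-fold. The highest group was SNc KO for 16 members, SNc WT for 5, VTA WT for 5 and VTA KO for 3. The lowest group was SNc WT for 10, VTA WT for 9, VTA KO for 8 and SNc KO for 2. Sema6b enters both counts 2 times, and they were not made over all probesets, so they show no trait of the family. Duplicate arrays differed by more than 0.5 for Nrp1 and Sema3a in SNc KO, Sema3a and Sema7a in VTA WT, and Sema6a in VTA KO.

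Known ligand and receptor partners were set side by side without a test of their relation. In SNc WT against VTA WT, the Sema3f, Nrp2 and Plxna3 differences were -0.17, -1.15 and -0.21. In SNc KO against SNc WT they were 0.18, 0.86 and 0.31, which reverses each sign in a comparison that uses the same SNc WT arrays. For the Sema3a, Nrp1 and Plxna4 set, the WT differences were 0.97, -0.38 and 0.21. The signs of ligand and co-receptor were thus opposite, but the adjusted p was 0.199 for Sema3a and 0.516 for Nrp1 from limma. Sema3a was also under the signal minimum in VTA WT. For Sema7a and Plxnc1 the knockout differences were 0.00 and 0.92 in SNc and 0.32 and 0.59 in VTA.

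The rest of the pathway was read from lists of 19 other surface partners, 13 of them tested, and 36 intracellular effectors, 34 measured and 33 tested. No gene of either list had an adjusted p under 0.05 from limma in any comparison. At the thresholds of the study, Met, a receptor tyrosine kinase that couples to class B plexins, was 1.31 higher in VTA KO than in VTA WT (adjusted p = 0.256 from limma). It was at 5.32 and 5.06 in VTA WT and 6.91 and 6.09 in VTA KO, and it was tested only because VTA KO passed the signal minimum. All WT and SNc arrays were under it, with a difference of -1.35 in SNc KO against VTA KO (adjusted p = 0.16 from limma). Mras, a Ras family GTPase, was 0.74 higher in SNc between the WT groups (adjusted p = 0.106 from limma). The effectors' median difference was 0.15 between the WT groups, 0.016 for the knockout in SNc and -0.017 for the knockout in VTA. Over all probesets these medians were 0.0080, 0.014 and -0.023. Between the WT groups, the median was 0.063 over probesets whose mean signal reached 100 in any group. It was 0.20 over 10 general neuron markers. For the difference between the knockout effects, Itga1 (2.24), Rnd2 (0.75) and Farp2 (0.60) passed the thresholds of the study (adjusted p = 0.495, 0.473 and 0.486 from limma). Of all probesets, 6.74% passed them for this difference. The shares were 6.62% between the WT groups, 4.35% for the knockout in VTA and 6.96% between the KO groups. Itga1, an integrin subunit, was at 7.50 and 5.38 on the VTA KO arrays.

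Other marker lists also differed between the groups. Summed signals of 11 ependymal and ciliated cell markers, 10 of them over the minimum, were 1002 and 959 in SNc WT, 1074 and 1114 in SNc KO, 4173 and 3666 in VTA WT, and 2730 and 1725 in VTA KO. Those of 10 astrocyte and radial glia markers, 8 of them over the minimum, were 2714 and 2666 in SNc WT, 2762 and 2731 in SNc KO, 4780 and 4481 in VTA WT, and 3561 and 2274 in VTA KO. Both were higher in VTA WT than in SNc WT, as Nrp2 was. Within SNc the genotypes differed by far less in these sums than VTA WT differed from SNc WT. The region differences of Plxna1, Sema3a, Sema3c, Sema3e and Sema4b ran the other way, with higher values in SNc. So did the sums of 10 microglia and macrophage markers, 4 of them tested, between the WT groups. These were 688 and 780 in SNc WT and 563 and 660 in VTA WT, and the KO groups overlapped. Gad1 was at 7.09 to 7.62 in SNc and 6.10 to 6.56 in VTA, while Gad2 and Slc32a1 did not separate the regions this way. The part of these cells in the members' values was not tested.

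**Figure D4:**
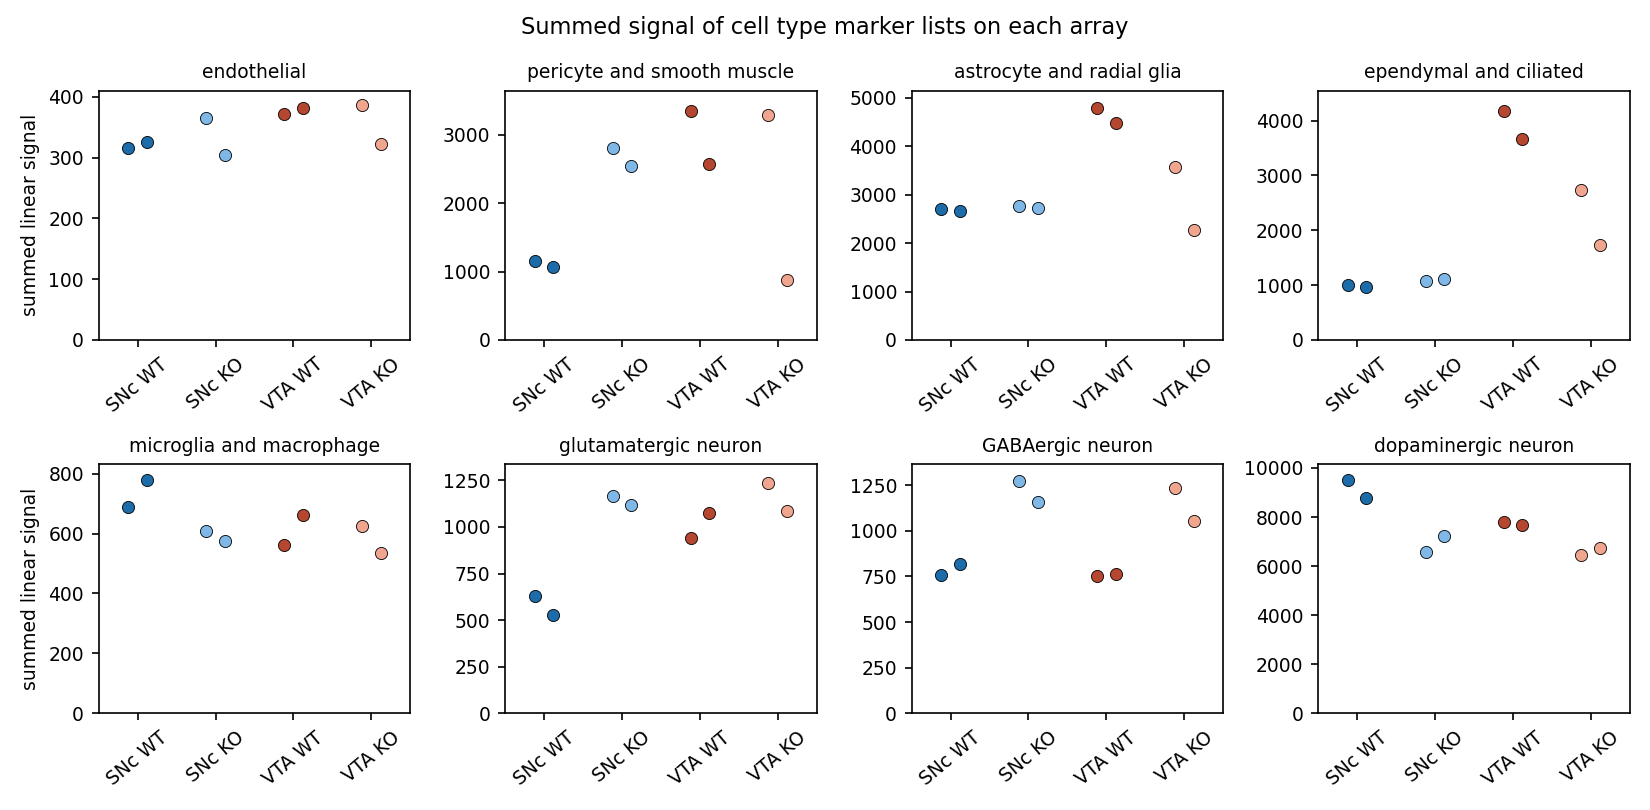
Summed linear signal (vertical axis, from 0, own scale in each panel) of 8 cell type marker lists, with 1 point per array. Pericyte and smooth muscle markers are low in SNc WT (1158 and 1061) and on 1 VTA KO array (880). Glutamatergic markers are lowest in SNc WT (631 and 526). GABAergic and glutamatergic markers are both higher on all KO arrays than on all WT arrays.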

How the data were processed

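RNA of sorted EGFP+ cells was amplified and hybridized by the authors to 8 arrays, 2 per group. The deposited values are log2 signals, summarised and normalized by the authors with RMA (RMA Express by the methods, version not given in the sources used here). FlexArray's LPE algorithm, named in the methods, was not available, and limma took its place. The study's methods give the p limit as a minimum and its results as a maximum of 0.05, and the maximum was used.

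A single limma 3.58.1 model (R 4.3.3) held all 8 arrays and the 4 group means (4 residual and 2.4 prior degrees of freedom). It covered the 22112 probesets whose mean signal reached 60 in any group, and p-values were adjusted over all of them. The precision is that of 2 arrays per group. Symbols came from the platform annotation. All 33 member probesets were found by gene ID in the GRCm38.p6 gene table, and 0 symbols changed. Replicate numbers did not pair the arrays (correlations of deviations between groups of 0.0058 to 0.098, none over 0.1).

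All members may be named, and those past an adjusted p of 0.05 or the thresholds of the study are given in full. The members, the lists and the motifs were chosen with earlier results of these data known, and support nothing independently. Alternatives were the signal filter, the normalization, the variance model, array weights, a replicate block, the samples fitted, each array left out and, added after seeing the data, the fit without both VTA KO arrays.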

Additional observations from a re-analysis of the deposited data

How the results depend on the processing

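Many alternatives leave the group means compared unchanged, and a low p marks a difference that is large against its spread. The following counts of signs were thus largely fixed in advance and are no test of stability. Of the 31 member differences with an unadjusted p under 0.05 from limma, 0 changed sign under any alternative, and of the 114 others 44 did in at least 1. Nrp2 in SNc WT against VTA WT lay between -1.21 and -1.04 in all of them, with adjusted p of 0.00526 to 0.148 from limma. With 1 array left out, the members called at an adjusted p under 0.05 numbered 0 to 1 there, and Nrp2 kept its call only without a VTA KO array. With array weights, 2 members, Nrp2 and Plxnc1, had an adjusted p under 0.05 in SNc KO against SNc WT (0.0321 and 0.0437 from limma), against 0 without weights, and over all alternatives these ranged up to 0.379 and 0.504. Members past the thresholds of the study with 1 array left out numbered 2 to 4 in SNc WT against VTA WT, 3 to 6 in SNc KO against SNc WT, 0 to 2 in VTA KO against VTA WT, 1 to 2 in SNc KO against VTA KO and 1 to 5 for the difference between the knockout effects. The upper counts of 6, 2 and 5 in SNc KO against SNc WT, in SNc KO against VTA KO and in the difference came without the second SNc KO array, while the 2 in VTA came without the first VTA KO array and the 0 without the second. The difference counted 4 without the first VTA KO array, and 1 without the second VTA WT, the second VTA KO or the first SNc KO array. With array weights and with the replicate block, 1 member (Nrp2) passed for the difference, and the cause was not tested. The replicate block, in which the arrays share only a number, left Nrp2 at an adjusted p of 0.0443 from limma in SNc WT against VTA WT. Apart from the count for the difference, which went from 2 members to 1, it changed no count of members by over 1.5 times. Over all probesets it gave 3 adjusted calls in place of 33 in SNc KO against SNc WT, 0 in place of 33 in SNc KO against VTA KO and 0 in place of 2 in VTA KO against VTA WT. Subtracting each array's median moved the median of all probesets to 0.12 between the WT groups and 0.11 between the KO groups, and there 1105 were higher and 622 lower in SNc WT at the thresholds of the study, against 589 and 875. Between the KO groups these were 1099 and 593, against 767 and 773. Precision is that of 2 arrays per group, and Sema3a (standard error 0.32) and Nrp1 (0.29) were measured with the widest error.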
